A study of Mus musculus with 6 samples.

Results

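The genes described here are 31 genes that carry out or control the synthesis of cholesterol and fatty acids. They were found by their gene symbols in a table of normalized RNA sequencing values. All 31 were among the 23718 listed genes, and all 31 also had a mean value of at least 1 over the 6 samples, as did 15391 genes in all. They fall into 4 branches, namely 7 genes of the mevalonate branch, 11 of the squalene and sterol branch, 5 regulators of the sterol regulatory element-binding proteins (SREBPs) and 8 of the fatty acid branch.

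The mouse incisor grows throughout life from stem cells at its root end, where the mesenchymal ones lie between the epithelial cervical loops. A pair of regions of the dental mesenchyme was cut out by laser capture microdissection and sequenced, to ask how stem cells differ from the dividing cells they produce. Gli1-CreER;tdT mice gave the mesenchymal stem cell (MSC) samples and Axin2-CreER;tdT mice the transit amplifying cell (TAC) samples, with 3 samples in each group. All 6 samples came from mice of 1 month, labelled as strain C57BL/6 although the methods of the study speak of a mixed background, and all carried a tamoxifen-inducible Cre and the red tdTomato reporter. Tamoxifen was given shortly before collection, so the fluorescence marks cells in which the Gli1 or the Axin2 promoter was active at that time. Capture takes a piece of a tissue section, and other cells lying in that piece enter the sample too. In such bulk samples, fewer cells of a type and less RNA per cell cannot be told apart. P-values measure the spread between these samples.

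Cholesterol synthesis starts from acetyl-CoA, which is built into mevalonate and then into isoprene units. These are joined into squalene, which is closed into the sterol ring and trimmed to cholesterol. Fatty acid synthesis uses the same acetyl-CoA, made in the cytosol from citrate, and its products are lengthened and desaturated for membranes. When sterols in the endoplasmic reticulum are low, SCAP escorts the SREBPs to the Golgi, where they are cut and released to switch on genes of both pathways, while INSIG proteins hold them back when sterols are high. Cells that divide need new membrane and can draw on both pathways.

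SREBPs bind sterol regulatory elements in promoters, usually beside NF-Y, a factor that binds the letters CCAAT. RefSeq promoter windows on GRCm38.p6, running from 250 bases before to 50 bases after the start, were found for 25 of the 31 genes and held 33 windows. There was no entry for Fdps, Fdft1, Sqle, Scd1, Scd2 and Fads1. The 5 promoters printed here show the element itself in Hmgcs1, the NF-Y box in Idi1, the gene of the mevalonate branch with the largest fitted change, 5 NF-Y boxes in Mvk, whose fitted change was near 0, the boxes of Fasn from the fatty acid branch, and the promoter of Elovl6 with neither motif. The windows are chr13:119690101-119690350 on the plus strand for Hmgcs1, chr13:8885356-8885605 on the plus strand for Idi1, chr5:114444019-114444268 on the plus strand for Mvk, chr11:120824548-120824797 on the minus strand for Fasn and chr3:129532136-129532385 on the plus strand for Elovl6. Each is given 5′ to 3′ and ends at the base before the start. Capitals mark the sterol regulatory element and the NF-Y box on either strand, where the box reads ATTGG on the other strand, and in Fasn 1 box on each strand overlap.
Hmgcs1: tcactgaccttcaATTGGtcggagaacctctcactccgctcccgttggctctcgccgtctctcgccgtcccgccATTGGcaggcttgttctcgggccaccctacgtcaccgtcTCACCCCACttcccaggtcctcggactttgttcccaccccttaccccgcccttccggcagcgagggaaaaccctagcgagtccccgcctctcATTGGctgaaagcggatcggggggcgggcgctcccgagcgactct
Idi1: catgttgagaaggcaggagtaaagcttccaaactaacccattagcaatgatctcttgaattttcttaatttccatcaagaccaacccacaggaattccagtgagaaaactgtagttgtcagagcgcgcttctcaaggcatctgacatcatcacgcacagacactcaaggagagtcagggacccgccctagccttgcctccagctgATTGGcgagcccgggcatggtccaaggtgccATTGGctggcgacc
Mvk: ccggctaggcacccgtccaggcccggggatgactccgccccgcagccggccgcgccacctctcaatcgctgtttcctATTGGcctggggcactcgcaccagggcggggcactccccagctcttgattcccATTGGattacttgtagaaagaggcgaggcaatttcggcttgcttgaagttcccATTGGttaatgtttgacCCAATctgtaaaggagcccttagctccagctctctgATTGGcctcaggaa
Fasn: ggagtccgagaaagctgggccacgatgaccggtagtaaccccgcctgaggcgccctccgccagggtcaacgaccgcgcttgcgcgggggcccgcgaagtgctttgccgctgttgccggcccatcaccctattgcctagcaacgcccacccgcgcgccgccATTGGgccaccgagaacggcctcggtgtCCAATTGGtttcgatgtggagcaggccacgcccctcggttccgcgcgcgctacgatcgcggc
Elovl6: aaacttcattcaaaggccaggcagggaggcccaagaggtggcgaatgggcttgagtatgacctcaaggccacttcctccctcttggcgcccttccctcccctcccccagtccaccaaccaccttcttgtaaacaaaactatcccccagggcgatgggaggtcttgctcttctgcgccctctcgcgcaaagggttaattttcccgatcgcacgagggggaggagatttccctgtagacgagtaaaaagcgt

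The search used the letters TCACNCCAC for the sterol regulatory element, CCAAT for the NF-Y box, GGGCGG for the Sp1 box and CACGTG for the E-box, each on both strands. The NF-Y box was in a window of 20 of the 25 genes (80%), against 41.1% of all 27025 genes with a window and 42.8% of the tested genes with one. All 9 genes of the squalene and sterol branch with a window held it, as did 5 of 6 mevalonate genes and 4 of 5 regulators, but only 2 of 5 genes of the fatty acid branch, Acly and Fasn. The Sp1 box was in 21 of the 25 (84%), against 68.7% of tested genes, and the E-box in 5 (20%), against 11.6%. The strict sterol element was found in Hmgcs1 alone, 137 bases before the start, against 1.36% of tested genes. These are matches of letters in windows of fixed length and not measured binding.

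The summed values of these genes were higher in TAC than in MSC. Each value is a number of reads scaled between libraries, as deposited, without division by gene length, and values are listed in the order of replicates 1, 2 and 3. The 31 genes summed to 659, 622 and 421 in MSC, and to 971, 982 and 690 in TAC. For this total, all TAC libraries were above all MSC libraries. By branch, that held for the sums of the mevalonate genes alone, which came to 31.4 to 40.7 in MSC and 72.6 to 83.3 in TAC. The squalene and sterol branch summed to 72.6, 70.4 and 135 in MSC and 97.4, 94.1 and 109 in TAC, so that MSC replicate 3 was the highest library. The regulators, at 78.6 to 135 in MSC and 118 to 162 in TAC, and the fatty acid branch, at 176 to 411 and 391 to 643, also overlapped. As a share of all values in a library, the 31 genes took 0.113%, 0.106% and 0.106% in MSC and 0.173%, 0.173% and 0.168% in TAC. On this scale the mevalonate genes (0.00670% to 0.00788% in MSC and 0.0137% to 0.0177% in TAC), the regulators (0.0197% to 0.0232% and 0.0280% to 0.0287%) and the fatty acid branch (0.0442% to 0.0704% and 0.0953% to 0.114%) did not overlap between groups, while the squalene and sterol branch did. Scd2 and Fasn weigh heavily in such a sum, and without them the sums were 386 to 427 in MSC and 499 to 589 in TAC. The sums are a description and were given no test.

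Gene by gene, some genes were fully separated between the groups. In 13 of the 31 genes (41.9%) every TAC value lay above every MSC value, and in 0 of 31 did every MSC value lie above TAC, where 12.3% of all tested genes were separated upward and 12.2% downward. The 13 were Acat2, Hmgcs1, Mvd and Idi1 of the mevalonate branch, Sqle, Cyp51, Nsdhl, Hsd17b7 and Sc5d of the sterol branch, the regulator Insig1, and Acly, Elovl6 and Fads1 of the fatty acid branch. Between libraries of the same replicate number, TAC was above MSC in 27, 27 and 23 of the 31 genes for numbers 1, 2 and 3, against 46.2%, 47.0% and 52.3% of all tested genes. TAC was higher at all 3 numbers for 20 genes (64.5%, against 24.6% of all tested), and lower at all 3 for 1 gene, Tm7sf2 (3.23%, against 26.4%).

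Some genes share exon bases with another annotated gene, and without known strand their reads cannot be told apart there. The shares were 26.7% for Fdps (Gm43738), 18.3% for Fdft1 (Ctsb), 13.2% for Scap (5830462I19Rik), 12.1% for Hmgcs1 (Gm48342), 12.1% for Tm7sf2 (Vps51) and 9.21% for Idi1 (Gm48574), and under 4% for the other genes.

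The groups were compared with limma on log2(value + 1), a scale that understates the change of low genes, and positive log2 fold changes stand for higher values in TAC. With Benjamini-Hochberg adjustment over the 15391 tested genes, 0 of the 31 passed 0.05, where 0.422% of all tested genes did, and 0.039% did so toward TAC. At an unadjusted limma p under 0.05 there were 7 genes, all higher in TAC (22.6%), where 5.42% of all tested genes were called in that direction and 6.43% toward MSC. The 7 were Acat2, Hmgcs1, Idi1, Sqle, Acly, Elovl6 and Fads1. Without TAC replicate 1 or without TAC replicate 2 there were 4, against 1036 and 1028 of all 15391 tested genes in either direction. Hmgcs1, Acly and Fads1 were among those called whichever library was left out. With the replicate number as a block 12 genes had an unadjusted limma p under 0.05, 11 higher in TAC and Tm7sf2 higher in MSC. The shares over all tested genes were 20.4% in all, 9.43% toward TAC and 10.9% toward MSC. Acat2 was no longer among them, while Fdps, Cyp51, Tm7sf2, Srebf2, Fasn and Scd2 were added. After adjustment 0 passed with the block, against 1.49% of all tested genes, 0.604% toward TAC and 0.884% toward MSC. The median log2 fold change over the 31 genes was 0.78, against 0.03 over all tested genes, and 24 of the 31 were positive (77.4%, against 51.5%).

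**Figure D1:**
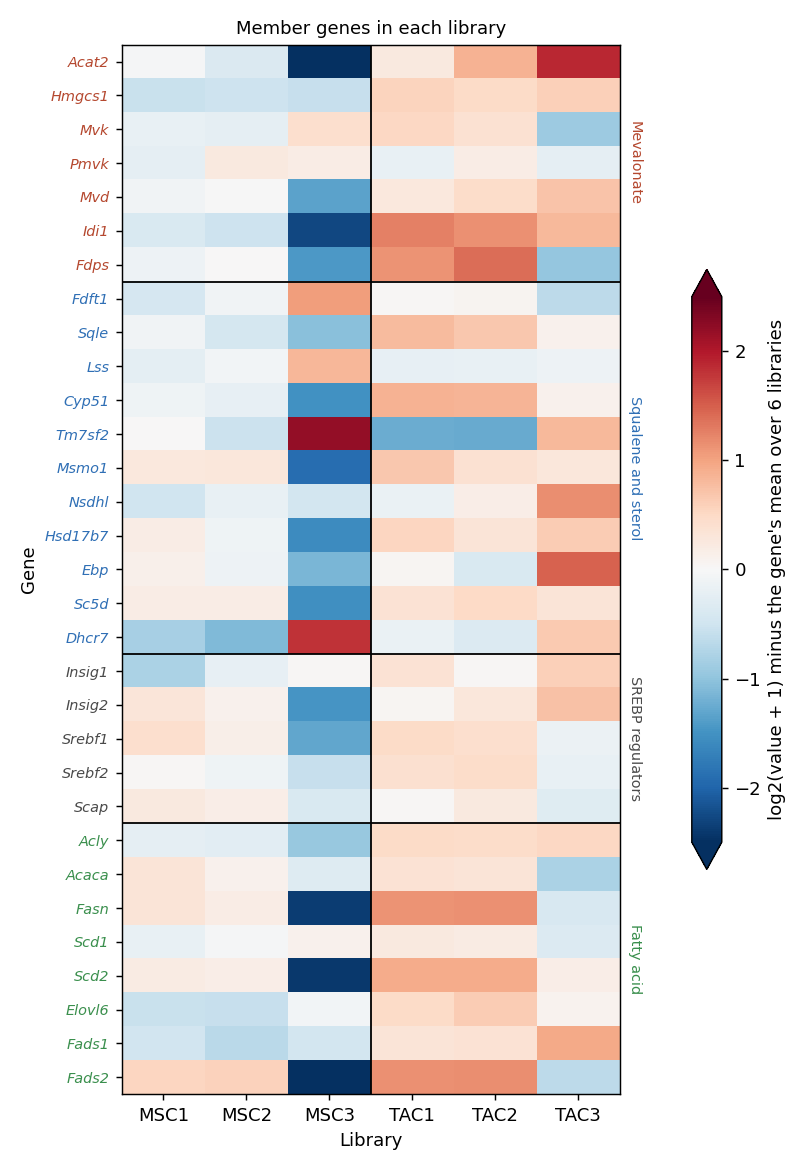
Each row is 1 of the 31 genes and each column a library. Colour gives log2(value + 1) minus the mean of that gene over the 6 libraries, red above and blue below, with lines between branches and between groups. Most rows turn from blue or pale in MSC to red in TAC, while MSC replicate 3 has the strongest colours of both kinds.

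The libraries formed 2 sets that cut across the groups. Estimated reads numbered 20203159 to 25567244 in replicates 1 and 2 of both groups, 59793645 in MSC replicate 3 and 108156380 in TAC replicate 3. Despite that depth, 21.0% of tested genes in MSC replicate 3 and 9.32% in TAC replicate 3 sat at the floor of their library, which stands for 0 reads, against 0.481% to 0.650% in the other libraries. Of the 31 genes, Acat2, Hsd17b7 and Fads2 were at this floor in MSC replicate 3 and Idi1 had 1 estimated read there. A count of 0 reads allows up to 3 reads, a value of 0.0266 in that library for counting error only. In replicates 1 and 2 alone, TAC was separated upward from MSC for 24 of the 31 genes, against 33.4% of all tested genes. It was separated downward for Tm7sf2 alone, against 39.5%. The 24 hold the 13 named above by definition, since those were separated over all replicates. With replicates 1 and 2 only, limma called 18 of the 31 after adjustment (58.1%, against 44.2% of all tested genes), 17 of them higher in TAC (against 20%) and Tm7sf2 higher in MSC (against 24.2%). The same 18 had an unadjusted limma p under 0.05, against 51.9% of all tested genes, 23.4% toward TAC and 28.4% toward MSC. That fit has 2 samples a group, and its p-values measure only the spread between replicates 1 and 2. With replicates 1 and 2 averaged instead, 0 of the 31 passed after adjustment, against 10 of all 15391 tested genes. With the library set as a batch term limma called 7 after adjustment, namely Hmgcs1, Idi1, Sqle, Cyp51, Acly, Fasn and Fads1, all higher in TAC (22.6%, against 11.8% of all tested genes, 5.22% toward TAC and 6.56% toward MSC). At an unadjusted limma p that fit called 14, 13 of them toward TAC, against 29.6% of all tested genes, 14.2% toward TAC and 15.4% toward MSC.

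The mevalonate branch had a median log2 fold change of 1.04, or 0.58 without MSC replicate 3, with 5 of 7 genes positive. Of the 7 genes, 4 were separated upward (57.1%) and 3 had an unadjusted limma p under 0.05 (42.9%), against 12.3% and 5.42% of all tested genes. Hmgcs1, at chr13:119690462-119708086 on mm10, encodes the synthase that joins acetyl-CoA and acetoacetyl-CoA into HMG-CoA. Its values were 11.1, 11.4 and 10.9 in MSC and 25.1, 23.8 and 25.9 in TAC. Both groups were tight and far apart, with means of 11.1 ± 0.249 and 24.9 ± 1.08 (SD, n = 3 each). The fitted log2 fold change was 1.10 (limma, 95% interval 0.41 to 1.78, SE 0.29, adjusted p = 0.192, unadjusted p = 0.00681). Replicates 1 and 2 gave 1.05 and replicate 3 gave 1.18. Over the other settings the adjusted p ran from 0.000210 with replicates 1 and 2 only to 1.00, and it was 0.0164 with the library set as a batch term and 0.0956 with the replicate block.

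Idi1, at chr13:8885501-8892451, encodes the isomerase that interconverts the isoprene units. Its values were 2.77, 2.43 and 0.0133 in MSC and 10.8, 9.88 and 7.62 in TAC. Every TAC library was well above every MSC library, and the low value of MSC replicate 3 stands for a single read. In the other libraries the ratio of TAC to MSC was 3.89 for replicate 1 and 4.06 for replicate 2. The fitted log2 fold change of 2.13 (limma, SE 0.65, adjusted p = 0.257) was the highest of the 31 genes. It was 1.52 without MSC replicate 3 and 1.65 within replicates 1 and 2. Of the 75-base stretches of Idi1 transcripts, as long as a read, 20.7% occur in transcripts of other annotated genes too.

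Acat2 encodes the thiolase that joins the first acetyl-CoA molecules in the cytosol. It stood at 5.04, 3.79 and the floor of 0.00666 in MSC and at 6.30, 10.2 and 21.7 in TAC. The groups did not overlap, but the distance was short at replicate 1 and wide at replicate 3. The fitted log2 fold change was 1.999 (limma, SE 0.82, adjusted p = 0.402), and it was 1.19 without MSC replicate 3 and 0.75 within replicates 1 and 2. With the replicate block the unadjusted limma p rose from 0.0438 to 0.0832. The near-identical gene Acat3 shares 40.7% of the 75-base stretches of Acat2, so the division of reads between them is uncertain, and Acat3 itself ran from 0.110 to 2.63 over the 6 libraries.

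Mvd, which encodes the decarboxylase that yields the first isoprene unit, stood at 3.12, 3.33 and 0.732 in MSC and at 4.20, 4.96 and 6.09 in TAC. The groups were separated by a small step. The log2 fold change was 0.94 (limma, SE 0.57, adjusted p = 0.581), or 0.52 without MSC replicate 3. Mvk encodes mevalonate kinase, and its values were 7.09, 6.87 and 11.3 in MSC and 12.1, 11.0 and 3.92 in TAC. TAC was higher at replicates 1 and 2 and lower at replicate 3, and the fitted change was close to 0. Of the other genes, Fdps, the farnesyl diphosphate synthase, ran from 1.45 to 5.63 in MSC and from 2.39 to 16.5 in TAC with TAC higher at each replicate number, but 80.4% of its 75-base stretches occur in transcripts of other genes too. Pmvk, the kinase after Mvk, ran from 4.98 to 7.30 in MSC and from 4.94 to 6.93 in TAC.

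The squalene and sterol branch had a median log2 fold change of 0.77, or 0.38 without MSC replicate 3 and also without TAC replicate 3, with 8 of 11 genes positive. Of the 11, 5 were separated upward (45.5%, against 12.3%) and 1 had an unadjusted limma p under 0.05 (9.09%, against 5.42%). Sqle, at chr15:59315077-59331192, encodes squalene epoxidase, a rate-limiting enzyme of the later pathway. Its values were 9.65, 7.45 and 4.53 in MSC and 18.7, 17.2 and 11.3 in TAC. TAC was higher throughout, by a ratio of 1.94, 2.31 and 2.49 at replicates 1, 2 and 3. The log2 fold change was 1.05 (limma, SE 0.43, adjusted p = 0.404). Cyp51, the lanosterol demethylase at chr5:4081145-4104746, had 8.05, 7.39 and 2.42 in MSC and 16.6, 16.6 and 9.46 in TAC. Here too the lowest TAC value stood above the highest MSC value, and the log2 fold change was 1.21 (limma, SE 0.53, adjusted p = 0.436, unadjusted p = 0.0552). With the replicate block the unadjusted limma p of Cyp51 was 0.0157.

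Of the other separated genes of this branch, Nsdhl, a sterol dehydrogenase that takes part in removing methyl groups, had values of 2.69, 3.62 and 2.80 in MSC and of 3.66, 4.89 and 10.7 in TAC. The step between the highest MSC and the lowest TAC value was very small. Hsd17b7, a ketosteroid reductase of the same steps, had 2.43, 1.80 and the floor of 0.00666 in MSC and 3.37, 2.78 and 3.70 in TAC. Sc5d, the sterol desaturase near the end of the pathway, had 6.66, 6.69 and 1.34 in MSC and 7.69, 8.56 and 7.42 in TAC. In Hsd17b7 and Sc5d the TAC libraries were alike and the low library was MSC replicate 3. The log2 fold changes of the 3 genes were 0.77, 1.00 and 0.78 in that order, and the limma adjusted p was 0.648, 0.594 and 0.679. When a library was left out, the changes ran from 0.38 to 1.05, from 0.46 to 1.35 and from 0.21 to 1.07.

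Some genes of the sterol branch turned with the library set. Fdft1, the squalene synthase that commits isoprene units to sterols, had 8.89, 11.4 and 26.2 in MSC and 12.5, 12.7 and 7.40 in TAC. TAC was a little higher at replicates 1 and 2 and far lower at replicate 3. Ebp, a sterol isomerase, had 4.37, 3.51 and 1.23 in MSC and 4.12, 2.78 and 12.6 in TAC. Dhcr7, which reduces 7-dehydrocholesterol, had 4.32, 3.42 and 32.4 in MSC and 7.44, 6.45 and 13.9 in TAC. Dhcr7 was thus higher in TAC within each of the first replicate numbers and highest of all in MSC replicate 3. The log2 changes in replicates 1 and 2 and in replicate 3 were 0.30 and -1.69 for Fdft1, -0.16 and 2.61 for Ebp, and 0.71 and -1.16 for Dhcr7.

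Tm7sf2, a sterol reductase, was lower in TAC at every replicate number, alone among the 31. It ran from 4.32 to 34.1 in MSC and from 2.22 to 12.5 in TAC, and both groups were highest at replicate 3. Its ratio of TAC to MSC was 0.334, 0.514 and 0.367 at replicates 1, 2 and 3, and its log2 fold change was -1.12 (limma, SE 0.90, adjusted p = 0.691). Leaving out replicate 3 of MSC gave -0.30, and leaving out that of TAC gave -1.81. The limma adjusted p was 0.188 with the replicate block and 0.0147 with replicates 1 and 2 only. Lss, which closes squalene epoxide into lanosterol, ran from 13.8 to 29.9 in MSC and from 14.1 to 15.03 in TAC. Msmo1, a sterol methyl oxidase, ran from 0.346 to 5.13 in MSC and from 5.12 to 6.98 in TAC, so the lowest TAC value fell just under the highest MSC value.

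The 5 regulators had a median log2 fold change of 0.50, or 0.15 without MSC replicate 3, with 4 of 5 positive. Of the 5, 1 was separated upward (against 12.3% of all tested genes) and 0 had an unadjusted limma p under 0.05 (against 5.42% toward TAC). Insig1, an SREBP target that itself holds SREBPs in the endoplasmic reticulum, is at chr5:28071363-28078662. It had values of 5.44, 8.72 and 10.3 in MSC and 13.2, 10.4 and 15.8 in TAC. The lowest TAC and the highest MSC value nearly touched, and the log2 fold change was 0.65 (limma, 95% interval -0.32 to 1.61, SE 0.41, adjusted p = 0.604). Insig2, the second such protein, had 5.38, 4.61 and 0.872 in MSC and 4.40, 5.30 and 7.60 in TAC. Its groups were mixed at replicates 1 and 2 and far apart at replicate 3, with log2 changes of -0.04 and 2.20 in that order.

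Srebf2 encodes SREBP-2, which acts mainly on cholesterol genes, and Srebf1 encodes the SREBP-1 forms, of which SREBP-1c acts mainly on fatty acid genes. Srebf2 had 59.9, 54.4 and 38.8 in MSC and 77.4, 81.2 and 51.1 in TAC. TAC was higher at each replicate number, but TAC replicate 3 lay below MSC replicates 1 and 2. The ratios were 1.29, 1.49 and 1.32, the log2 fold change was 0.44 (limma, SE 0.31, adjusted p = 0.645), and the block brought the unadjusted limma p from 0.196 to 0.0317. Srebf1 had 35.5, 29.1 and 10.1 in MSC and 37.0, 35.6 and 23.6 in TAC. The step was slight at replicates 1 and 2, and the log2 fold change was 0.50 (limma, SE 0.49, adjusted p = 0.757). Scap, the escort protein, ran from 18.5 to 29.3 in MSC and from 19.7 to 29.0 in TAC, and its log2 fold change of -0.02 had a 95% interval of -0.77 to 0.73.

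The fatty acid branch had a median log2 fold change of 1.02, or 0.43 without MSC replicate 3, with 7 of 8 genes positive. Acly, Elovl6 and Fads1 were separated upward (37.5%, against 12.3% of all tested genes) and had an unadjusted limma p under 0.05 (against 5.42%). Acly, at chr11:100476353-100528000, encodes the lyase that makes cytosolic acetyl-CoA from citrate and so feeds both pathways. Its values were 29.7, 28.9 and 17.6 in MSC and 49.2, 48.6 and 50.3 in TAC. The TAC libraries were nearly equal and all above MSC, with means of 25.4 ± 6.78 in MSC and 49.3 ± 0.878 in TAC (SD, n = 3 each). The log2 fold change was 0.97 (limma, 95% interval 0.26 to 1.67, SE 0.30, adjusted p = 0.264). Acaca, the carboxylase that makes malonyl-CoA in the next step, had 81.6, 70.0 and 51.7 in MSC and 83.0, 81.1 and 36.8 in TAC. The groups were mixed, the log2 fold change was -0.08 (95% interval -0.995 to 0.832), and 47.4% of the 75-base stretches of Acaca occur in transcripts of other genes.

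Fasn, the synthase that builds palmitate, is at chr11:120805846-120824547. It had 89.9, 81.7 and 13.1 in MSC and 157, 161 and 54.3 in TAC. TAC was higher at each replicate number by ratios of 1.75, 1.97 and 4.15, yet TAC replicate 3 lay below MSC replicates 1 and 2. The log2 fold change was 1.25 (limma, SE 0.78, adjusted p = 0.601), or 0.37 without MSC replicate 3, and the adjusted p was 0.103 with the replicate block and 0.0287 with the library set as a batch term, within a range of 6.12e-06 to 1.00 over all other settings.

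The stearoyl-CoA desaturases put the first double bond into saturated fatty acids. Scd2, at chr19:44293676-44306864, had 141, 138 and 22.2 in MSC and 233, 232 and 137 in TAC. TAC was higher at each number, and TAC replicate 3 lay just below MSC replicates 1 and 2. The log2 fold change was 1.35 (limma, SE 0.71, adjusted p = 0.521), or 0.48 without MSC replicate 3. Scd1 had 21.3, 23.5 and 26.0 in MSC and 28.9, 27.97 and 18.9 in TAC. It was a little higher in TAC at replicates 1 and 2 and lower at replicate 3, with a log2 fold change of 0.07 (95% interval -0.64 to 0.79). The ratio of the Scd2 to the Scd1 value was 6.65, 5.86 and 0.854 in MSC and 8.06, 8.29 and 7.28 in TAC, so MSC replicate 3 stood far below the other 5 libraries in this ratio.

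Elovl6, the elongase that turns palmitate into stearate, is at chr3:129532355-129638495. Its values were 14.8, 14.6 and 21.0 in MSC and 31.3, 34.8 and 23.7 in TAC. The groups did not overlap, with a narrow step at replicate 3. The log2 fold change was 0.80 (limma, SE 0.32, adjusted p = 0.383), being 1.11 in replicates 1 and 2 and 0.17 in replicate 3. Fads1, the delta-5 desaturase of polyunsaturated fatty acids at chr19:10182888-10196870, had 23.9, 20.8 and 24.4 in MSC and 42.7, 43.6 and 66.2 in TAC. Every TAC value was well above MSC, with ratios of 1.78, 2.09 and 2.72, and the log2 fold change was 1.08 (limma, 95% interval 0.40 to 1.76, SE 0.29, adjusted p = 0.194). Fads2, the delta-6 desaturase beside it, ran from the floor of 0.00666 to 9.13 in MSC and from 3.31 to 14.3 in TAC.

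**Figure D2:**
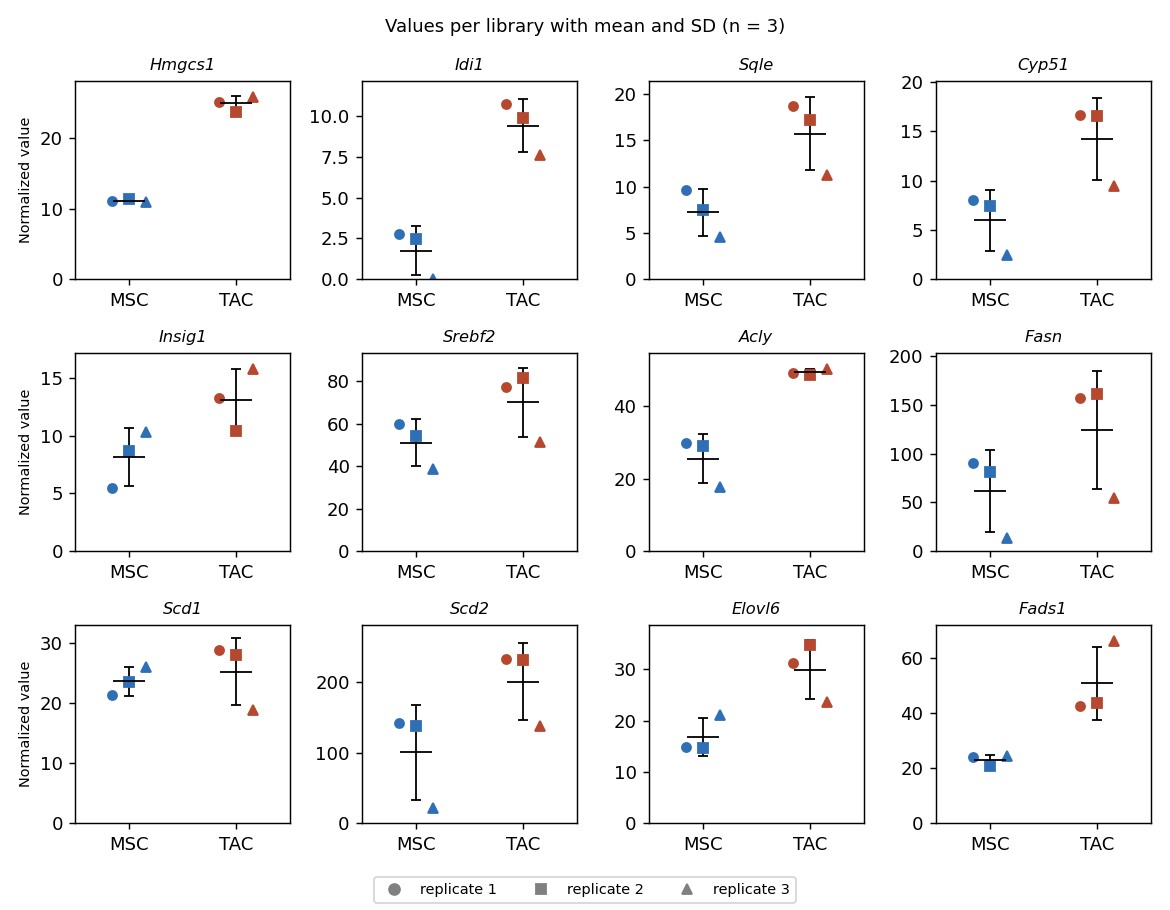
Normalized value of 12 of the genes in each library, on linear axes from 0. Circles, squares and triangles are replicates 1, 2 and 3, blue for MSC and red for TAC, and the horizontal mark with bars is the mean with the SD (n = 3). Hmgcs1, Idi1, Sqle, Cyp51, Insig1, Acly, Elovl6 and Fads1 do not overlap between groups, whereas Srebf2, Fasn, Scd1 and Scd2 do.

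**Figure D3:**
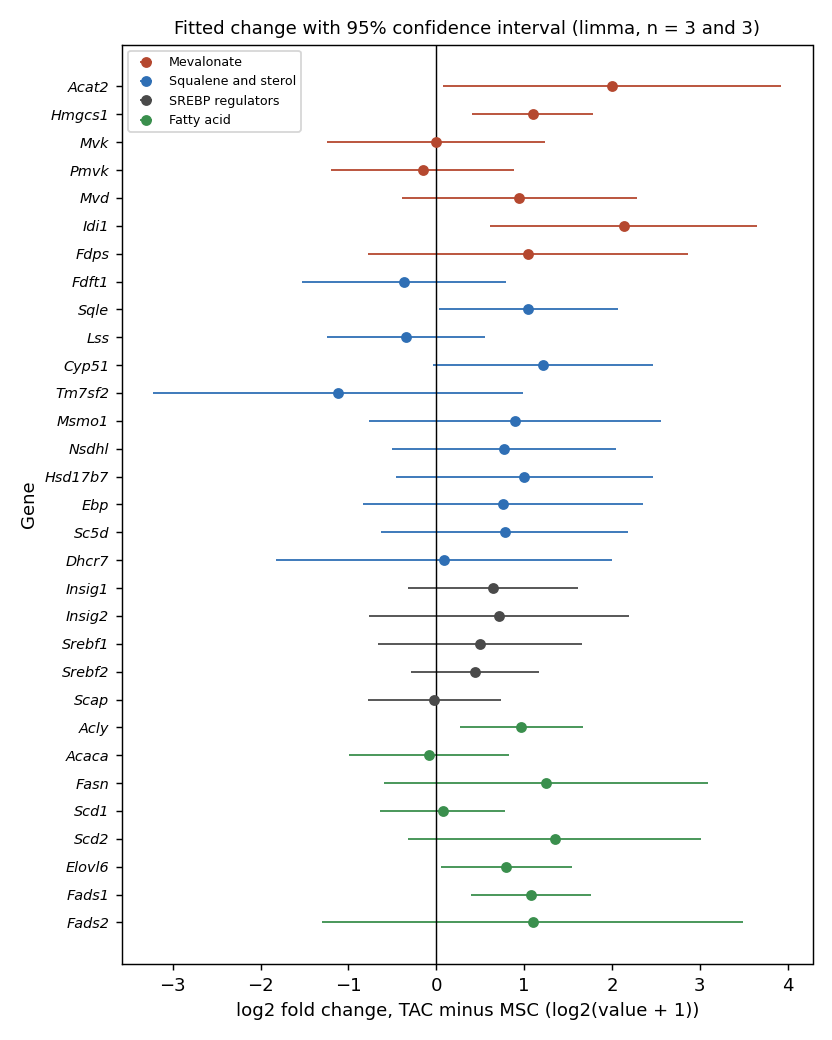
Points are fitted log2 fold changes of TAC minus MSC on the log2(value + 1) scale and lines are 95% intervals from limma, with 3 samples a group. The intervals of Acat2, Hmgcs1, Idi1, Sqle, Acly, Elovl6 and Fads1 lie above 0, before any adjustment for the number of genes tested, and those of the other genes cross it.

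Levels can be set side by side between genes once divided by transcript length. Per kilobase of the longest protein-coding transcript, Scd2 had the highest mean of the 31 in both groups, at 18.4 ± 12.4 in MSC and 36.8 ± 10.04 in TAC (SD, n = 3 each). In TAC it was followed by Fads1 at 14.7 ± 3.85, Srebf2 at 13.8 ± 3.23, Fasn at 12.4 ± 6.03 and Acly at 11.1 ± 0.198, neighbours whose SDs overlap. In MSC replicate 3 the order was another, with Scd2 at 4.07 per kilobase, below Tm7sf2 at 22.8, Dhcr7 at 11.5 and Srebf2 at 7.64 among others. Hsd17b7 had the lowest mean, at 0.306 ± 0.272 in MSC and 0.712 ± 0.101 in TAC.

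The size and, for some genes, the direction of the change differed between the library sets. The change in replicates 1 and 2 and the change in replicate 3 had opposite signs for 8 of the 31 genes (25.8%, against 38.8% of all tested genes) and were both positive for 20. A limma test of the difference between the sets, which rests on the spread between replicates 1 and 2 since replicate 3 has 1 library a group, passed 0.05 after adjustment for 22 of the 31 genes (71.0%, against 57.2% of all tested genes). Hmgcs1, Sqle, Insig1 and Srebf2 were among those that did not pass, with adjusted p of 0.636, 0.692, 0.815 and 0.645 in that order. Scd2 and Fasn, both higher in TAC in both sets, passed with changes of 0.73 and 0.89 in replicates 1 and 2 and of 2.58 and 1.97 in replicate 3. The median change of the 31 genes was 0.47 in replicates 1 and 2 and 1.18 in replicate 3, against -0.05 and 0.04 over all tested genes.

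**Figure D4:**
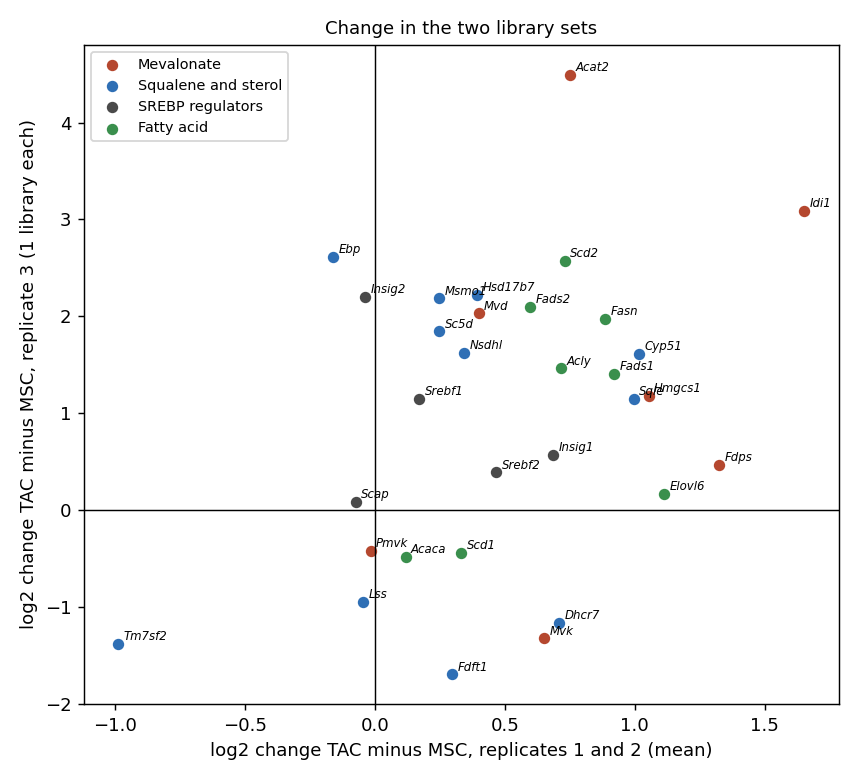
Each point is a gene, coloured by branch. The horizontal axis gives the log2 change of TAC minus MSC as the mean of replicates 1 and 2, and the vertical axis the same in replicate 3, which has 1 library a group. The upper right part, where both changes are positive, holds 20 genes, and Ebp, Insig2, Fdft1, Mvk and Dhcr7 have changes of opposite sign that lie far from the axes on the vertical scale.

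Beside the 31 genes, a list of 32 other genes of lipid handling was read, of which 31 were tested. Their median log2 fold change was 0.17 and 18 of 31 were positive (58.1%), 6 were separated upward (19.4%, against 12.3% of all tested genes) and 1 downward (against 12.2%). Of the 31, 0 passed the adjusted limma threshold, against 0.422% of all tested genes. At an unadjusted limma p under 0.05 there were 3, which is 1 toward TAC (3.23%, against 5.42%) and 2 toward MSC (6.45%, against 6.43%). With the library set as a batch term limma called 4 after adjustment (12.9%, against 11.8%), Mid1ip1, Abca1, Lrp1 and Nr1h2. All 4 were higher in MSC, where 6.56% of all tested genes were called toward MSC and 5.22% toward TAC. With replicates 1 and 2 only it called 13 (41.9%, against 44.2%), 7 higher in TAC (against 20%) and 6 higher in MSC (against 24.2%). Mid1ip1, which activates the carboxylase encoded by Acaca, was higher in MSC, at 34.9, 30.2 and 41.3 against 16.8, 17.6 and 12.3 in TAC. The groups were clearly apart, with a log2 fold change of -1.15 (limma, SE 0.30, adjusted p = 0.188, or 0.0287 with the library set as a batch term, in a range of 0.000335 to 1.00 over the other settings). Abca1, the exporter of cellular cholesterol, had 91.9, 98.9 and 42.1 in MSC and 43.2, 39.2 and 19.3 in TAC. It was lower in TAC at each number, and its log2 fold change was -1.16 (limma, SE 0.45, adjusted p = 0.379, or 0.0546 with the replicate block and 0.00585 with the library set as a batch term, in a range of 4.16e-06 to 1.00).

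Fabp5, a fatty acid binding protein, had 2.999, 4.72 and the floor of 0.00666 in MSC and 10.4, 10.8 and 6.56 in TAC. All TAC values were above MSC, and the log2 fold change was 1.82 (limma, SE 0.74, adjusted p = 0.396). The 12 genes of carbon supply and elongation had a median of -0.10, with 6 of 12 positive. They ran from -1.15 for Mid1ip1 to 1.80 for Acsl3, which activates fatty acids and was separated upward, with the floor value in MSC replicate 3. The 4 genes of the prenyl branch had a median of 0.24, the 6 of SREBP processing and of the sterol sensors (LXRs) 0.04, and the 9 tested genes of uptake, efflux and storage 0.25. The difference between these lists and the 31 genes was not tested.

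The captured regions were also read for driver genes, cell division and other cell types. Gli1, which drives the MSC reporter, had 256, 245 and 422 in MSC and 153, 141 and 396 in TAC. It was higher in MSC at each number, but TAC replicate 3 lay above MSC replicates 1 and 2, so its groups overlapped. Axin2, which drives the TAC reporter, had 58.3, 48.0 and 12.01 in MSC and 56.8, 63.9 and 34.1 in TAC, so its groups were mixed. All 6 markers of dividing cells were higher in TAC at an unadjusted limma p under 0.05, where 5.42% of all tested genes were called in that direction. Cdk1 also passed after adjustment, against 0.039%. With the replicate block Mki67 and Birc5 passed as well (limma adjusted p = 0.0442 and 0.0489), against 0.604% of all tested genes toward TAC. The sum of the 6 markers ran from 86.2 to 194 in MSC and from 283 to 939 in TAC.

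After adjustment 3 of 4 smooth muscle markers, Acta2, Myh11 and Tagln, were higher in MSC, against 0.383% of all tested genes. With the replicate block Acta2 had an adjusted p of 0.0701 while Myh11, Tagln and Cdk1 still passed, and 0 of all tested genes passed after adjustment when replicate 1 or 2 of either group was left out. Smooth muscle markers summed to 313 to 445 in MSC and 2.66 to 12.4 in TAC, endothelial markers to 129 to 195 and 62.8 to 84.1, and Schwann cell markers to 59.8 to 161 and 35.6 to 56.9. Macrophage markers overlapped, at 65.2 to 180 in MSC and 38.9 to 124 in TAC. These 4 lists were mostly lower in TAC, for 4 of 4, 4 of 5, 5 of 6 and 5 of 6 tested genes. All 8 dental epithelium and all 5 odontoblast markers had positive fitted changes, which for some came from the replicate 3 libraries. In replicates 1 and 2 the changes of Amelx (-0.21), Enam (-0.07), Klk4 (-0.77), Dspp (-0.14), Phex (-0.15) and Ibsp (-0.43) were negative, and with those replicates only limma called Amelx, Klk4, Dspp and Ibsp lower in TAC after adjustment and Krt5, Krt14, Epcam, Cdh1, Dmp1 and Sp7 higher, where 24.2% of all tested genes were called lower and 20% higher. Of the epithelial markers 4 were separated upward in TAC, namely the keratins Krt5 and Krt14 and the adhesion genes Epcam and Cdh1. Krt14 had 12.9, 8.84 and 16.02 in MSC and 18.1, 16.1 and 35.6 in TAC, and Epcam had 1.23, 0.927 and the floor of 0.00666 in MSC and 2.26, 4.03 and 6.68 in TAC. The summed epithelial list, carried by the enamel genes Amelx and Ambn, ran from 300 to 3658 in MSC and from 2173 to 3337 in TAC, and the summed odontoblast list, carried by Dspp, from 606 to 5078 and from 3366 to 4589. Both sums were lowest in MSC replicate 3. Of 7 adipocyte markers, Adipoq, Cidec, Lep, Retn and Cfd were not among the listed genes, and Plin1 was at 0.320 or less in each library. Lipe, the hormone-sensitive lipase and the only tested gene of that list, had 23.5, 24.6 and 39.98 in MSC and 29.2, 31.1 and 69.4 in TAC, higher in TAC at each replicate number with overlapping groups. No marker stood at the floor in every library of a group. The part of these cell types and of cell division in the change of the lipid genes was not tested.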

How the data were processed

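RNA was sequenced from laser-captured MSC and TAC regions, 3 samples each, grouped by the genotype in the labels. The processing notes of the submitters name CASAVA 1.8.2, TopHat2 2.0.8, Partek and the mouse build mm10, while the counter and its use of strand are not given in the sources used here. The deposited values are a signal: per library, the authors' table holds an estimated read number plus 1, divided by a size factor. They were not RPKM, as the methods would have it, since the lowest value was shared by genes of any length. Read numbers were recovered by dividing each value by the smallest in its library and taking off 1. Of values under 100 reads, 74.3% to 94.0% per library were whole within 0.02, so no count model was used. Deposited end coordinates were lowered by 1.

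Tests used limma 3.58.1 in R 4.3.3 on log2(value + 1), with the empirical Bayes variance trend, a minimum mean of 1, a two-sided contrast of TAC minus MSC, Benjamini-Hochberg adjustment and a threshold of 0.05. The fitting step was also run on simulated data with equal, independent noise in all genes and without library sets. That run cannot show how the fit handles the library sets. The methods of the study name a significance level of 0.05 for transcripts and neither an adjustment nor a model for them, so calls at an unadjusted p are given too. The genes and lists were chosen with earlier results of these data known. Of the 31 genes, values in every sample are given for those whose groups did not overlap, that had an unadjusted p under 0.05, or whose change had opposite signs and lay over 1 apart in the library sets, and for Hmgcs1, Sqle, Fdft1, Insig1, Srebf1, Srebf2, Acaca, Fasn, Scd1 and Scd2 in any case. From the other lists, genes past a threshold or needed beside a result are named. The figure genes and the promoters printed were chosen after their values were seen.

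The replicate numbers were checked for pairing by correlating deviations from the group means. Same-numbered samples gave 0.477, 0.466 and 0.517, and the crossed pairs among replicates 1 and 2 gave 0.462 and 0.480. The check thus showed the split of replicate 3 from the others, and no pairing by number within replicates 1 and 2. Comparisons by replicate number and the replicate block are given with that limit. The alternatives were another pseudocount, filters and scaling, no variance trend, the replicate block, a library set term, replicates 1 and 2 alone or averaged, and each sample left out. The test of the difference between library sets, the counts in replicates 1 and 2 alone and the sums without Scd2 and Fasn were added after seeing the data. Read overlap and exon overlap used 75-base windows and GENCODE M21. Intervals and floors from reads cover counting error only. Some genes of the pathway are not reported here.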

Additional observations from a re-analysis of the deposited data

How the results depend on the processing

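The count of the 31 genes past the adjusted threshold was 0 in the reported fit and in every setting but 2, rising to 7 with the library set as a batch term and to 18 with replicates 1 and 2 only, which leaves 2 samples a group. It was 0 whichever library was left out. Dropping replicate 1 or 2 of either group left 0 of all 15391 tested genes past the threshold, so those fits cannot set the 31 genes apart from the rest. In the fit that dropped MSC replicate 3, 292 of all 15391 passed, and in the fit that dropped TAC replicate 3, 36 did. The count at an unadjusted limma p under 0.05, 7 as reported, was 12 with the replicate block, against 20.4% of all tested genes in either direction. It was 14 with the library set term, against 29.6%, and 18 with replicates 1 and 2 only, against 51.9%. At a minimum mean of 10 it was 4 of the 18 genes tested, against 1192 of all 8185. With replicates 1 and 2 averaged it was 1, against 610 of all 15391 tested genes. When a library was left out it was 4 to 8, against 1028 to 3108 of all 15391. The replicate block brought none of the 31 past the adjusted threshold, and it moved the unadjusted count of the other lipid genes from 3 to 5 (16.1%, against 20.4% of all tested genes). The count of positive changes was 13 at a minimum mean of 10 and 23 to 26 when a library was left out.

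The median of the squalene and sterol branch was -0.13 at a minimum mean of 10 and 0.30 with replicates 1 and 2 only, and that of the fatty acid branch was 0.77 at a pseudocount of 5 and 0.72 with replicates 1 and 2 only. At a pseudocount of 5 the medians of the mevalonate, squalene and sterol, and regulator groups were 0.70, 0.41 and 0.41, and with replicates 1 and 2 only those of the mevalonate genes and regulators were 0.75 and 0.17. When a library was left out, the medians ran from 0.58 to 1.18 for the mevalonate branch, from 0.38 to 1.02 for the squalene and sterol branch, from 0.15 to 0.69 for the regulators and from 0.43 to 1.10 for the fatty acid branch.

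Some genes turned direction. With replicates 1 and 2 only these were Mvk at 0.65, Fdft1 at 0.30, Ebp at -0.16, Insig2 at -0.037 and Acaca at 0.12. Mvk was 0.020 at a pseudocount of 5 and 0.073 after quantile normalization. Dhcr7 was -0.041 at a pseudocount of 5 and -0.23 with replicates 1 and 2 averaged, where Scap was 0.0055 and Scd1 -0.055. When a library was left out, the change ran from -0.26 to 0.44 for Mvk, -0.66 to 0.065 for Fdft1, -0.44 to 1.01 for Dhcr7, -0.030 to 0.83 for Srebf1, -0.22 to 0.12 for Scap, -0.28 to 0.30 for Acaca, -0.031 to 0.26 for Scd1 and -0.0077 to 1.70 for Fads2. The cause was not tested. The fitted changes of Acat2, Hsd17b7, Fads2 and Idi1 include 0 or 1 read in MSC replicate 3. When a library was left out, their lowest changes were 1.19, 0.46, -0.0077 and 1.52 in that order.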
